A study of Mus musculus with 2 samples.

Results

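Ccn1, Ccn2, Thbs1, Tnfrsf12a, Axl, Ankrd1, Amotl2 and Ajuba were followed through cultured adipocyte precursors of white and brown fat. These 8 genes, of the 32285 listed for each library, were taken as a named set of mechanosensitive YAP/TAZ targets, and all 8 were found by symbol in both count matrices. The set is defined by name and not by a threshold on a measured value.

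YAP (Yap1) and TAZ (Wwtr1) are transcriptional coactivators that carry signals from cell shape, cell spreading and the stiffness of the surroundings into the nucleus. The Hippo kinases phosphorylate them and hold them in the cytoplasm, and when they are free of this control they bind TEAD transcription factors and switch on target genes. In fat cell precursors, TAZ is known to bind PPARG, the master regulator of adipocyte formation, and to repress it. Stiff culture plastic is a classic setting for YAP and TAZ in the nucleus.

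The study cultured the stromal vascular fraction of C57/BL6J pups, labelled P0, from subcutaneous white and interscapular brown depots, pooling males and females. Cells grew to confluency, were lifted with trypsin and went into one 10x Genomics 3′ library per depot, so no group differs by genotype or treatment, and no depot has a replicate. The authors filtered the cells, regressed the cell cycle and named 7 white and 7 brown precursor clusters: early precursors (wAPC 1 to 4 and bAPC 1 to 5), committed adipocyte precursors (wCAPs and bCAPs), fibro-adipogenic-progenitor-like cells (wFAPLs and bFAPLs) and a small white cluster of differentiating wFAPLs. Depot and library cannot be told apart. All cells passed through culture, so they are a model of expanded precursors and not of cells taken directly from tissue.

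The white library held 5261 cells and 144451047 UMIs (unique molecular identifiers, each counting one captured transcript), with a median of 26239 UMIs per cell. The brown library held 7009 cells and 205551320 UMIs, with a median of 26411. The authors' cluster labels were used for the 1999 precursor cells per depot that carry them here, whose median depths were 27204 and 26900 UMIs. The 2 libraries shared 9 cell barcodes. Values are CPM, UMIs of the gene per 1000000 UMIs of the cells summed, with exact 95% intervals that cover counting error only, and the spread between female and male cells, which came from different pups, is given beside them. Over 97 pairs of female and male values for one member in one cluster, the median absolute difference was 0.182 on the log2 scale and the 90th percentile 0.647, so counting intervals are often narrower than this spread.

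The cluster labels were set against their own markers. Pparg stood at 92.5 CPM in wCAPs and 9.48 in wFAPLs, and at 92.8 in bCAPs and 17.0 in bFAPLs. Cryab, a small heat shock protein gene used as a FAPL marker, stood at 85.5 CPM in wCAPs, 333 in wFAPLs, 95.3 in bCAPs and 445 in bFAPLs. Serpinb1a ran the same way, from 8.41 to 76.3 in white and from 15.8 to 94.5 in brown. The CAP and FAPL names matched these markers in both depots. The authors used the same markers to name these clusters, so the match is a description and not an independent check. The differentiating wFAPLs held 15 cells and carried Pdgfra, the receptor that marks these precursors, at 6.29 CPM, against 42.7 to 160.1 in the other 13 clusters. Myh11, smooth muscle myosin, stood at 2522 CPM in them. Their FAPL markers split, with Cryab at 1537, Col4a1 at 1833 and Col4a2 at 944 CPM, all above wFAPLs. Serpinb1a at 2.10 and Meox2 at 25.2 were below wFAPLs. Of the other precursor markers, Dlk1 (62.9), Dcn (52.4) and Col1a1 (2386) were lower than in wFAPLs, and Pdgfrb (231) was higher. The markers of this cluster were thus mixed, and these cells are described apart.

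TEAD factors recognise the short sequence CATTCC, and promoters of the members are shown with that motif in capitals on either strand (CATTCC or GGAATG). RefSeq promoters (GRCm38.p6) matched 6 of the 8 members, all but Ccn2 and Thbs1, and the 250 bases before the annotated start are given 5′ to 3′ along the gene for the 5 members that hold the motif.
Ccn1, chr3:145649986-145650235, minus strand: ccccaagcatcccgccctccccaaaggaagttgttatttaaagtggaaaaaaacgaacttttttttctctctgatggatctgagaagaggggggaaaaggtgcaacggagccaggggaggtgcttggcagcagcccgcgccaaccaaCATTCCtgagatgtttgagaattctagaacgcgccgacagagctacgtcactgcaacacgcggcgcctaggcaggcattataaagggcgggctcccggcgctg
Axl, chr7:25788734-25788983, minus strand: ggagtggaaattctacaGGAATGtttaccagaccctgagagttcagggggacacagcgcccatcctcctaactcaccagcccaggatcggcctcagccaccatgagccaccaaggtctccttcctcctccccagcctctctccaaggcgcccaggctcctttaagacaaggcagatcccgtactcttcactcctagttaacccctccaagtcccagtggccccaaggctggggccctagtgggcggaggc
Ankrd1, chr19:36119845-36120094, minus strand: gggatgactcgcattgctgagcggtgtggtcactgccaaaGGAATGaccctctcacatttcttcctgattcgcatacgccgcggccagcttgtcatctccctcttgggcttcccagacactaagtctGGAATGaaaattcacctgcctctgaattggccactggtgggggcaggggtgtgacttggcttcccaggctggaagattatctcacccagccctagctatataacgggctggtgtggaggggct
Amotl2, chr9:102717554-102717803, plus strand: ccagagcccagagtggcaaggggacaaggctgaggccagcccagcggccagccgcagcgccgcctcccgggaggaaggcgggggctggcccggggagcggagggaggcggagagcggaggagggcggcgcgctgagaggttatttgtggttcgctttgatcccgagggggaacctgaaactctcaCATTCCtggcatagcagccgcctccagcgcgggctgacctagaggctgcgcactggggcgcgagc
Ajuba, chr14:54577662-54577911, minus strand: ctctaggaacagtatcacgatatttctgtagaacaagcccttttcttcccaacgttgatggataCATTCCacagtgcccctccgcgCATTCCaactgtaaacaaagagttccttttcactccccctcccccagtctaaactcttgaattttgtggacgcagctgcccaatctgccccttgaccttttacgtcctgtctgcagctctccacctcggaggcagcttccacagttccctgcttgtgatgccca

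Ankrd1 and Ajuba each held 2 matches, which began 210 and 123 bases before the start in Ankrd1 and 186 and 164 bases before it in Ajuba. Ccn1, Axl and Amotl2 each held 1, at 103, 233 and 65 bases. Tnfrsf12a (chr17:23677450-23677699, minus strand) held none. Among all 32851 promoter windows of the same length, 12.6% held at least 1 match on either strand and 1.02% held 2 or more. The AP-1 motif TGANTCA and the CArG box bound by serum response factor, both searched on either strand, had no match in the 6 windows and so none that overlapped a TEAD match, and 6.75% and 1.47% of all windows held them. A match describes letters in a window and is not evidence of a bound site. RefSeq starts can differ from the gene bounds of the count annotation given with each member, and the Ankrd1 and Amotl2 windows lie inside those bounds.

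All 8 members were detected in both depots, and the summed precursor cells differed little between them. Ccn1 (ENSMUSG00000028195, chr3:145646976-145649981, minus strand, GRCm38) encodes CYR61, a secreted matricellular protein that binds integrins. It stood at 249 CPM in white precursors (interval 245 to 254) and 237 in brown (233 to 241). Ccn2 (ENSMUSG00000019997, chr10:24595442-24598683, plus strand) encodes connective tissue growth factor, and stood at 134 CPM in white (131 to 137) and 151 in brown (148 to 154). Thbs1 (ENSMUSG00000040152, chr2:118111876-118127133, plus strand), the gene of thrombospondin-1, which activates latent TGF-beta and binds CD47, stood at 679 CPM in white (672 to 686) and 800.3 in brown (793 to 808). Ccn1 was thus slightly lower and the other matricellular genes were higher in brown, with intervals that did not overlap.

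The receptors moved in opposite directions. Tnfrsf12a (ENSMUSG00000023905, chr17:23675445-23677468, minus strand) encodes FN14, the receptor of the cytokine TWEAK, and its level was 70.7 CPM in white (68.6 to 72.9) and 84.7 in brown (82.4 to 87.1). Axl (ENSMUSG00000002602, chr7:25757273-25788705, minus strand), a receptor tyrosine kinase whose ligand is GAS6, stood at 98.9 CPM in white (96.3 to 101) and 90.9 in brown (88.5 to 93.4).

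Among the members that act inside the cell, Ankrd1 differed most. Ankrd1 (ENSMUSG00000024803, chr19:36111961-36120099, minus strand) encodes a muscle ankyrin repeat protein of nucleus and sarcomere, and stood at 9.06 CPM in white (8.30 to 9.88) and 17.8 in brown (16.7 to 18.9). Amotl2 (ENSMUSG00000032531, chr9:102716672-102733418, plus strand), an angiomotin family scaffold that binds YAP and takes part in feedback on it, stood at 85.7 CPM in white (83.4 to 88.2) and 78.6 in brown (76.4 to 80.9). Ajuba (ENSMUSG00000022178, chr14:54567472-54577558, minus strand), a LIM protein that restrains the LATS kinases, stood at 15.8 CPM in white (14.8 to 16.9) and 19.9 in brown (18.8 to 21.1).

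No member differed 2-fold between the depots when the labelled cells were summed, and 1.83% of the 9041 genes with at least 10 CPM in either depot did. The log2 ratio of brown over white was 0.97 for Ankrd1 (0.82 to 1.13), 0.33 for Ajuba (0.21 to 0.46), 0.26 for Tnfrsf12a (0.20 to 0.32), 0.24 for Thbs1 (0.22 to 0.26) and 0.17 for Ccn2 (0.13 to 0.22). It was -0.08 for Ccn1 (-0.11 to -0.04), -0.12 for Axl (-0.18 to -0.07) and -0.13 for Amotl2 (-0.18 to -0.07). The median over the members was 0.21, beside -0.04 over all genes. Ankrd1 lay just under the 2-fold line, and it crossed the line in 9 of the 10 alternatives tried, among them female cells (1.02), G1 cells (1.28), thinned cells (1.12) and the labelled cells without the 15 differentiating wFAPLs (1.11). Male cells (0.74) were the exception. The sums mix clusters in unequal shares, and Ankrd1 stood at 78.1 CPM in bAPC 4, which made up 7.10% of labelled brown cells. The other brown precursors stood far lower, as given below, and no alternative left bAPC 4 out of the brown sum. Thbs1 stood at 659.9 CPM in female and 751 in male white precursors and at 787 and 914 in brown, so its spread between the sexes was close to its spread between depots. Ccn2 did not show this, at 135 and 134.7 in white and 151.9 and 152 in brown.

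**Figure D1:**
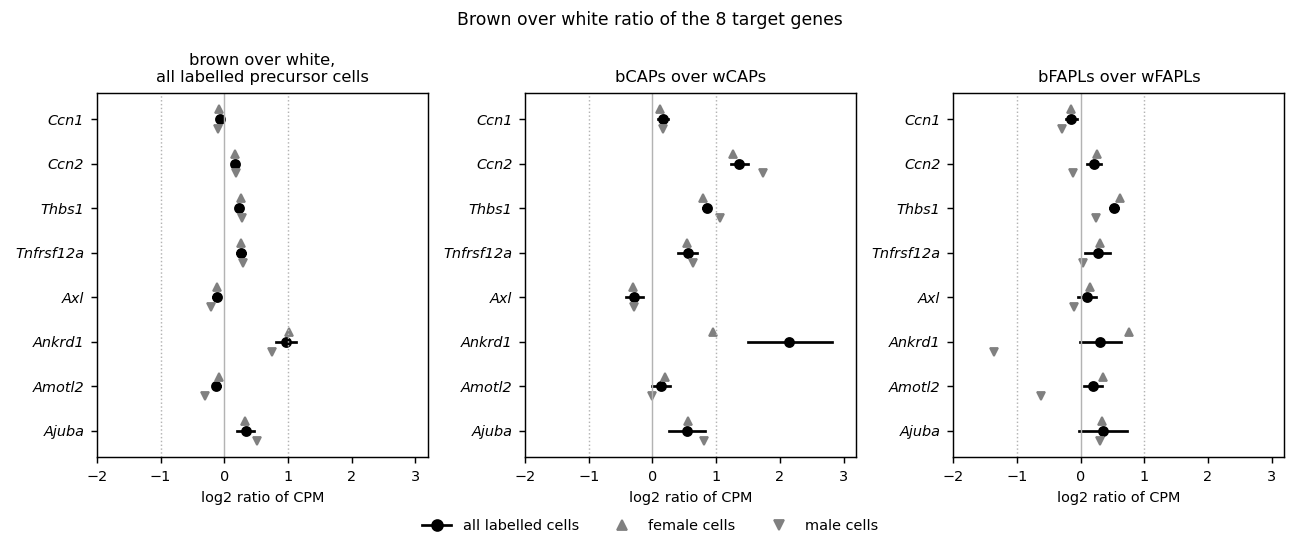
Log2 ratio of CPM, brown over white, for the 8 target genes (rows) in all labelled precursor cells, in CAPs and in FAPLs; circles with bars are all labelled cells with 95% counting intervals, triangles are female or male cells alone where each side held at least 10 UMIs, and dotted lines mark 2-fold. In all cells Ankrd1 lies at 0.97, next to the 2-fold line, and the other 7 members lie between -0.13 and 0.33. Ccn2, Thbs1 and Ankrd1 lie to the right in CAPs, and in FAPLs the male mark of Ankrd1 lies at -1.36.

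Shares of cells with at least 1 UMI were compared at one depth. With every cell thinned to 10000 UMIs, a depth that all labelled cells reached, Ccn2 was found in 35.1% of white and 41.8% of brown precursors (51.5% and 61.6% before thinning) and Ankrd1 in 3.50% and 8.20% (6.30% and 15.9%). Ccn1 was found in 77.1% and 74.7% of thinned cells, and Ajuba in 14.7% and 17.7%. As a measure of free RNA, Ankrd1 was seen in 0 of 46 white and 0 of 68 brown glial cells, where 0 UMIs allow up to 2.84 and 1.99 CPM, and Ccn2 in 2.17% of thinned white and 27.9% of thinned brown glial cells (8.70% and 30.9% before thinning). Median depth was 20107 UMIs in white glial cells and 19495 in brown ones. The Ccn2 shares of the white and brown glial cells differ widely, and whether they reflect free RNA was not tested.

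Levels differed more between clusters of one depot than between depots. Across the white clusters of at least 50 cells, the highest level of Ccn2 was 11.3 times the lowest, that of Thbs1 5.25 times, Tnfrsf12a 3.57 times, Amotl2 3.05 times and Ccn1 2.18 times. Across the brown clusters the same folds were 8.42, 4.16, 2.27, 2.84 and 2.38, and Ankrd1 spanned 14.2-fold. Axl and Ajuba were the flat members, with folds of 1.34 and 1.56 in white and 1.63 and 1.69 in brown. Over all genes at 10 CPM or more the median fold between highest and lowest cluster was 1.42 in white and 1.53 in brown, and 17.4% and 20.3% of genes passed 2-fold. The clusters were made from these same counts, so these spans and the ratios between clusters are descriptions.

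**Figure D2:**
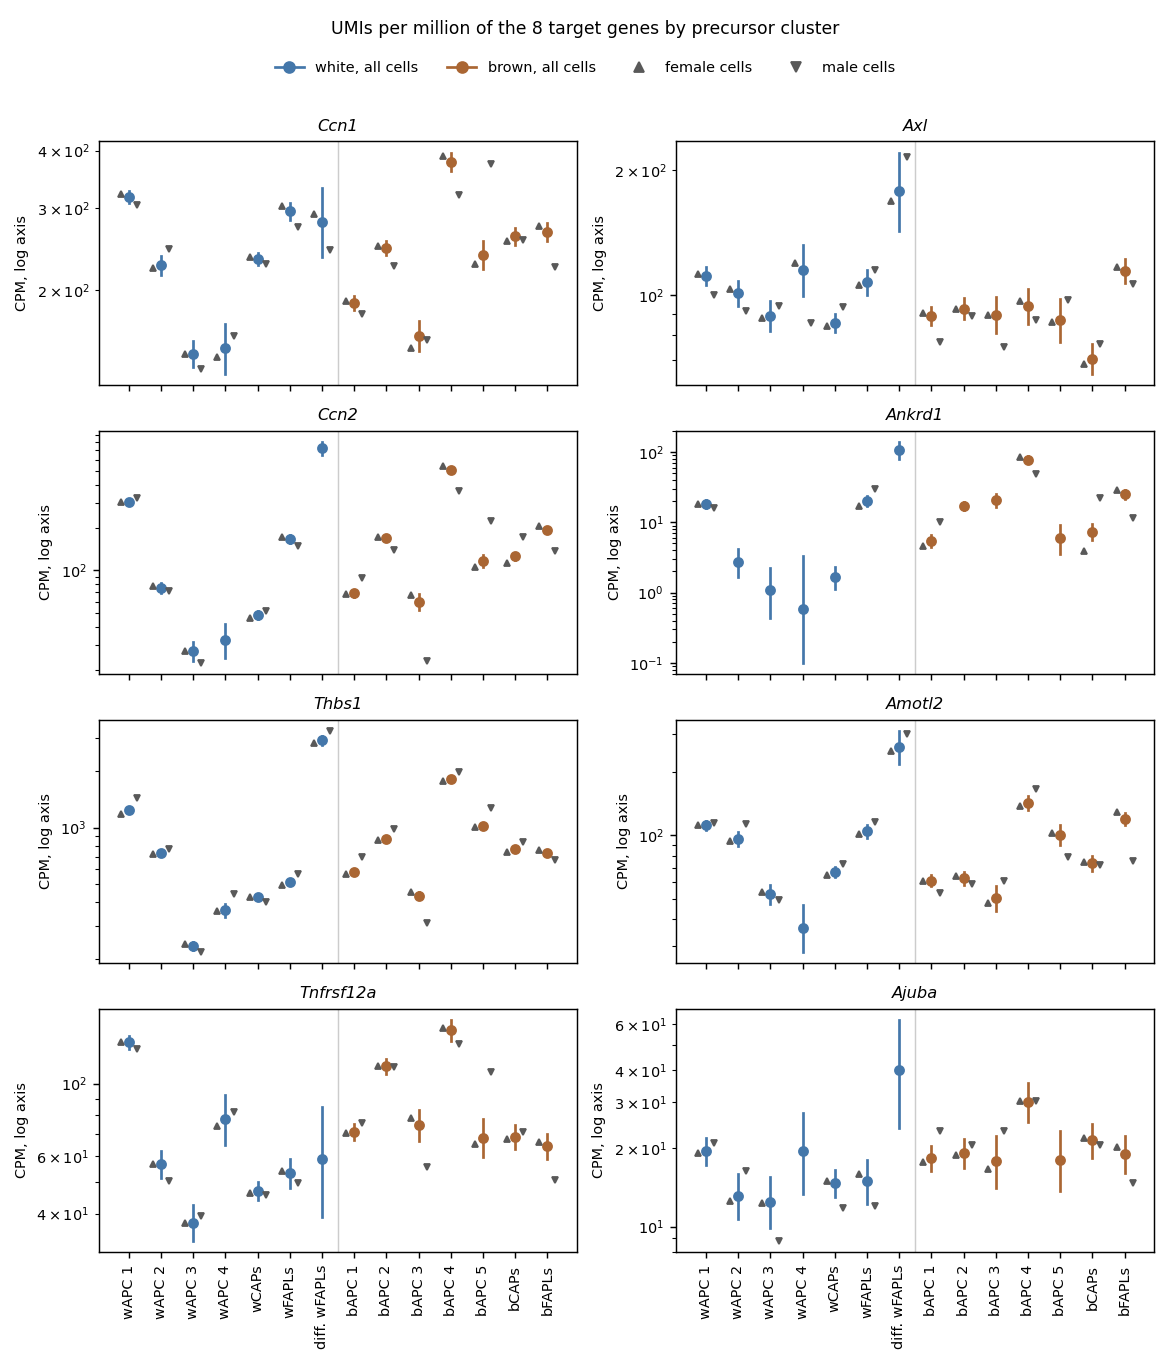
CPM on a log axis (vertical) of each of the 8 target genes in the 14 precursor clusters (horizontal), white clusters left of the grey line and brown ones right of it; circles with bars are all labelled cells with 95% Poisson intervals, and triangles are female and male cells where each held at least 10 UMIs. Ccn1, Ccn2, Thbs1, Tnfrsf12a and Amotl2 peak in wAPC 1 among white clusters of at least 50 cells, and 7 of the 8 genes peak in bAPC 4, whereas Axl runs nearly level.

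Ccn1 was highest in wAPC 1 at 318 CPM, followed by wFAPLs at 296, wCAPs at 233 and wAPC 2 at 226, and lowest in wAPC 4 at 149.7 and wAPC 3 at 146. Among these, the intervals of wCAPs and wAPC 2 overlapped, as did those of wAPC 4 and wAPC 3. In brown it was highest in bAPC 4 at 378, then 267 in bFAPLs, 261 in bCAPs, 246 in bAPC 2 and 238 in bAPC 5, with those 4 not separated from their neighbours. It was lowest in bAPC 1 at 187 and bAPC 3 at 159.

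Ccn2 had the widest spread of the matricellular members. It stood at 305 CPM in wAPC 1, 166 in wFAPLs, 75.2 in wAPC 2, 48.7 in wCAPs, 32.4 in wAPC 4 and 27.1 in wAPC 3, and of these only the last 2 overlapped. In brown, bAPC 4 reached 505, above bFAPLs at 192, bAPC 2 at 168, bCAPs at 125, bAPC 5 at 117, bAPC 1 at 69.2 and bAPC 3 at 60.0. The share of thinned cells with Ccn2 followed this order at its ends, with 62.3% in wAPC 1 and 80.3% in bAPC 4 against 16.3% in wAPC 3 and 26.9% in bAPC 3 (77.7%, 90.1%, 30.0% and 42.1% before thinning). The bAPC 3 share was no higher than the 27.9% of brown glial cells, while its CPM was above theirs, given below. Whether the glial Ccn2 is free RNA was not tested, so the bAPC 3 share is not read as signal or as background.

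Thbs1 separated every white neighbour beyond its interval: 1237 CPM in wAPC 1, 734 in wAPC 2, 511 in wFAPLs, 426 in wCAPs, 363 in wAPC 4 and 236 in wAPC 3. In brown the order was bAPC 4 at 1805, bAPC 5 at 1020.5, bAPC 2 at 867, bCAPs at 768, bFAPLs at 733, bAPC 1 at 584 and bAPC 3 at 434, with bCAPs and bFAPLs overlapping. FAPLs therefore stood in the middle of the white order and low in the brown order for Thbs1, whereas for Ccn1 they stood next to the highest cluster in both depots.

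Tnfrsf12a was highest in wAPC 1 at 134 CPM, followed by wAPC 4 at 77.8, and lay between 37.5 and 56.6 in the other 4 white clusters of at least 50 cells. In brown it reached 146 in bAPC 4 and 113 in bAPC 2, and the other 5 clusters lay between 64.2 and 74.6 with overlapping neighbours. Axl stayed between 85.7 and 115 in those white clusters and between 70.3 and 115 in brown. The lowest Axl level was in CAPs of both depots, and bFAPLs at 115 stood above every other brown cluster beyond the interval.

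Ankrd1 was concentrated in few clusters. In white it stood at 20.2 CPM in wFAPLs and 18.3 in wAPC 1, which overlapped, and at 2.71 in wAPC 2, 1.65 in wCAPs and 1.08 in wAPC 3, with 1 UMI in all of wAPC 4. In brown it reached 78.1 in bAPC 4, 25.1 in bFAPLs, 20.8 in bAPC 3, 17.1 in bAPC 2, 7.31 in bCAPs, 5.88 in bAPC 5 and 5.49 in bAPC 1. It was seen in 48.6% of bAPC 4 cells and 25.4% after thinning, against 0.593% of thinned wCAPs.

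Amotl2 stood at 111 CPM in wAPC 1, 104 in wFAPLs and 96.1 in wAPC 2, which overlapped as neighbours, and then at 66.9 in wCAPs, 52.4 in wAPC 3 and 36.5 in wAPC 4. In brown it was 143 in bAPC 4, 119.5 in bFAPLs, 100.04 in bAPC 5 and 50.2 to 73.5 elsewhere. Ajuba lay between 12.5 and 19.4 in white clusters of at least 50 cells, with no neighbours separated, and in brown only bAPC 4 at 30.0 stood apart from a range of 17.8 to 21.5.

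wAPC 1 and bAPC 4 were the clusters in which most members were highest. Among clusters of at least 50 cells wAPC 1 held the highest level of 5 of the 8 members, and of 11.1% of all genes, and bAPC 4 held the highest of 7 of the 8, and of 15.4% of all genes. Against all other white precursors, Ccn2 in wAPC 1 was 305 against 76.7 CPM, a log2 ratio of 1.99 (1.92 to 2.06). Ankrd1 was at 1.61 (1.36 to 1.87), Tnfrsf12a at 1.43 (1.34 to 1.52) and Thbs1 at 1.33 (1.30 to 1.36), and these 4 members passed 2-fold upward where 0.343% of 9033 genes did (1.59% in either direction). Amotl2 (0.53), Ccn1 (0.49), Ajuba (0.41) and Axl (0.23) were also higher.

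In bAPC 4 against the other brown precursors, Ankrd1 was at 78.1 against 12.5 CPM, a log2 ratio of 2.65 (2.46 to 2.83), Ccn2 at 2.08 (2.01 to 2.14) and Thbs1 at 1.34 (1.31 to 1.38), the 3 members past 2-fold, beside 1.00% of 8968 genes upward (1.66% in either direction). Amotl2 (0.96), Tnfrsf12a (0.87), Ccn1 (0.75) and Ajuba (0.66) were higher by less, and Axl was not separated (0.05, -0.09 to 0.19). Set side by side, bAPC 4 exceeded wAPC 1 in Ankrd1 by 2.09 (1.86 to 2.33), the 1 member past 2-fold there beside 2.37% of 8937 genes, and in Ccn2 by 0.73, while Axl was lower by 0.24 on the log2 scale (-0.24, -0.40 to -0.09).

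The lowest levels fell in the clusters rich in dividing cells. G2/M cells made up 48.5% of wAPC 3 and 52.0% of bAPC 3, against 11.3% to 18.8% in the other clusters. Each was the lowest cluster of 5 of the 8 members, Ccn1, Ccn2, Thbs1 and Ajuba in both, with Tnfrsf12a in wAPC 3 and Amotl2 in bAPC 3, and of 18.7% and 13.9% of all genes. In wAPC 3 against other white precursors, Ccn2 (-2.45, -2.67 to -2.23), Thbs1 (-1.64, -1.72 to -1.57) and Ankrd1 (-3.23, from 7 UMIs) were past 2-fold lower, where 1.72% of genes were (1.91% in either direction). In bAPC 3, Ccn2 at -1.40 was the 1 member past 2-fold, beside 1.52% of genes lower and 1.82% in either direction, and Ankrd1 (0.24, -0.08 to 0.56) was not lower. Phase shares moved with these levels, and phases were therefore also compared within clusters.

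Cells called G2/M carried less Ccn1 than G1 cells in both depots. Ccn1 stood at 177 CPM in G2/M and 269.8 in G1 white precursors, and at 161 and 254 in brown, log2 ratios of -0.61 (-0.67 to -0.54) and -0.66 (-0.73 to -0.59). Within clusters that had at least 10 cells in each phase, it was lower in G2/M in 5 of 5 white and 7 of 7 brown clusters. Ccn2 was lower too (-0.64 and -0.59), as was Thbs1 (-0.32 and -0.30), in 4 of 5 white clusters for both and in 6 and 5 of 7 brown clusters. No member was past 2-fold, and 5.65% of white and 5.52% of brown genes were.

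S phase cells gave another order. Ankrd1 stood at 18.6 CPM in white S cells and 7.06 in G1 (log2 1.40, 1.12 to 1.68), the 1 member past 2-fold, beside 5.02% of genes, while the brown ratio was 0.42 (0.20 to 0.65) and no member passed, beside 5.13%. Tnfrsf12a was higher in S than G1 in 5 of 5 white and 7 of 7 brown clusters, by 0.65 and 0.27 over all cells. Ccn2 was higher by 0.76 and 0.35 over all cells, in 3 of 5 white clusters (the lowest at -0.51) and 6 of 7 brown ones, and Ankrd1 was higher in 4 of 5 and 5 of 7. Ajuba was lower over all cells (-0.48 and -0.30), in 4 of 5 white and 5 of 7 brown clusters. S cells made up 20.6% of wAPC 1 and 9.26% of wAPC 3, so values over all cells also carry differences between clusters. Phases were scored from cell cycle genes that do not include the members.

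**Figure D3:**
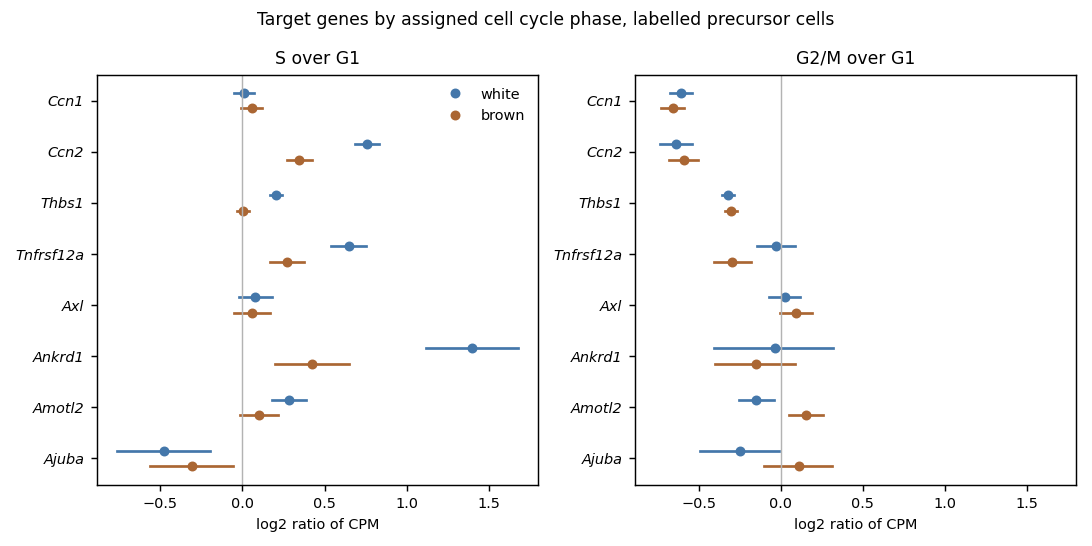
Log2 ratio of CPM for the 8 target genes (rows) in cells called S (left) or G2/M (right) over cells called G1, in white and brown labelled precursors, with 95% counting intervals as bars. Ccn1, Ccn2 and Thbs1 lie left of 0 in G2/M in both depots, and Ankrd1, Ccn2 and Tnfrsf12a lie right of 0 in S.

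FAPLs were then set against CAPs, the fibrogenic-like against the adipogenic precursors of each depot. All 8 ratios of wFAPLs over wCAPs were above 0, as were 48.3% of 9199 genes. Of the members, 2 were past 2-fold upward, where 2.25% of those genes were (3.84% in either direction). Ankrd1 was at 20.2 against 1.65 CPM, a log2 ratio of 3.62 (3.05 to 4.22), and Ccn2 at 166 against 48.7, a ratio of 1.77 (1.65 to 1.89). Amotl2 (0.64, 0.51 to 0.77), Ccn1 (0.34), Axl (0.33) and Thbs1 (0.26, 0.21 to 0.32) were higher by less. Tnfrsf12a (0.18, 0.01 to 0.36) barely cleared 0 and Ajuba (0.02, -0.31 to 0.35) did not. The median was 0.33, beside -0.01 over all genes.

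The Ankrd1 ratio rests on few cells. Its 145 UMIs in wFAPLs came from 31 of 256 cells, with 34 in one male cell and 28 in one female cell, and its 32 UMIs in wCAPs came from 7 of 674 cells. Counting intervals treat each UMI as independent and so understate the uncertainty of such a gene. Ccn2 was higher in wFAPLs in female cells (1.89) and in male cells (1.54).

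In brown the contrast was weaker. Ankrd1 stood at 25.1 CPM in bFAPLs and 7.31 in bCAPs (log2 1.78, 1.35 to 2.22), the 1 member past 2-fold upward, beside 1.86% of 9148 genes (3.85% in either direction). Axl (0.70, 0.55 to 0.86), Amotl2 (0.70, 0.55 to 0.85) and Ccn2 (0.61, 0.50 to 0.73) were higher, at 115 against 70.3, 119.5 against 73.5 and 192 against 125 CPM. Ccn1 (0.03) and Tnfrsf12a (-0.10) were not separated from 0, nor was Ajuba (-0.18, -0.51 to 0.15), and Thbs1 was slightly lower (-0.066, -0.12 to -0.01). The median was 0.32, beside -0.04 over all genes.

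Female and male cells disagreed on the brown contrast. Ankrd1 stood at 3.93 CPM in female and 22.1 in male bCAPs, and at 28.6 in female and 11.5 in male bFAPLs. Its ratio of bFAPLs over bCAPs was therefore 2.86 in female cells and -0.95 in male cells (-1.98 to 0.02), where 29 UMIs in bCAPs came from 6 of 50 cells, with 18 in one of them, and 14 in bFAPLs from 6 of 47. Ccn2 stood at 113 in female and 171 in male bCAPs and at 207 in female and 138 in male bFAPLs, ratios of 0.88 and -0.31. Of the 224 Ccn2 UMIs in male bCAPs, 57 came from 1 of the 50 cells, so the male Ccn2 ratio leans on that cell. The median over the members was 0.44 in female and -0.32 in male cells. Axl was the member that kept its direction with both intervals above 0, at 0.48 (0.10 to 0.87) in male cells.

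**Figure D4:**
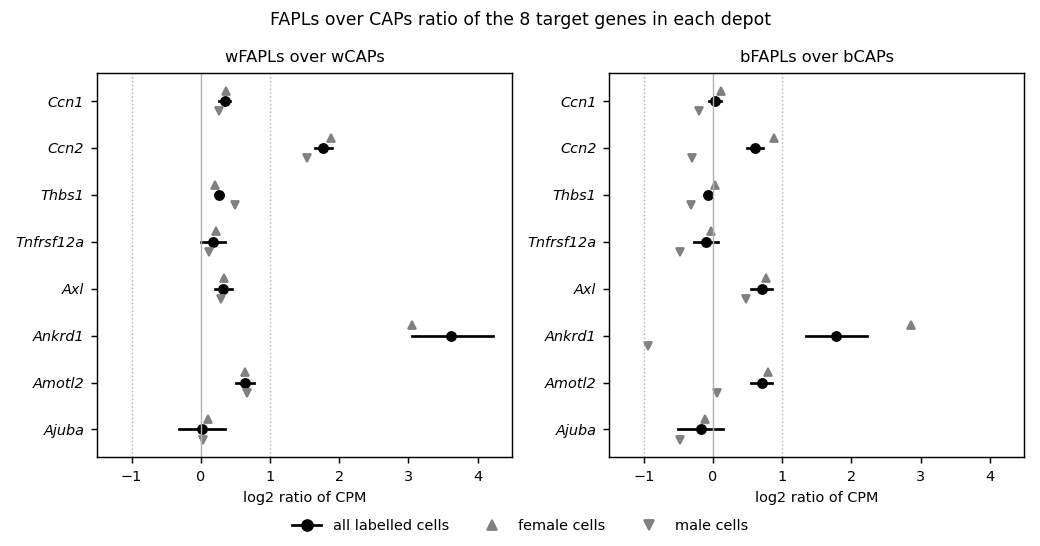
Log2 ratio of CPM, FAPLs over CAPs, for the 8 target genes (rows) in white (left) and brown (right); circles with bars are all labelled cells with 95% counting intervals, triangles are female or male cells alone where each side held at least 10 UMIs, and dotted lines mark 2-fold. Ccn2 and Ankrd1 lie past 2-fold in white, and in brown the male triangles of Ccn2 and Ankrd1 lie left of 0.

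CAPs differed between depots more than FAPLs did. Ccn2 stood at 125 CPM in bCAPs and 48.7 in wCAPs (log2 1.36, 1.24 to 1.49), the 1 of 7 members with at least 10 CPM that passed 2-fold, beside 4.30% of 9235 genes. Thbs1 was at 768 against 426 (0.85, 0.80 to 0.90), Tnfrsf12a at 68.8 against 46.9 (0.55, 0.40 to 0.70) and Ajuba at 21.5 against 14.7 (0.55), while Axl was lower (-0.28). Ankrd1, under 10 CPM in both, was at 7.31 against 1.65. In FAPLs no member passed 2-fold, beside 1.65% of 9136 genes. Thbs1 was higher in bFAPLs (0.52, 0.46 to 0.58), and the other ratios lay between -0.15 for Ccn1 and 0.35 for Ajuba (-0.03 to 0.72). The CAP and FAPL ratios were not compared by a test, since each depot is one library.

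Genes that act on YAP and TAZ were counted by list, naming the ends of each. Over all 9041 genes, 42.9% were higher in brown, so a lower ratio was the commoner direction. Of 8 YAP/TAZ and TEAD factor genes, 7 reached 10 CPM, and 6 of them were lower in brown than in white precursors, with Yap1 at 57.5 against 68.6 CPM (-0.25), Wwtr1 at 135 against 143 (-0.08) and Tead1 at 310.1 against 376 (-0.28), and Tead2 at 0.01. Of 17 genes of the Hippo kinase cascade and its regulators, 12 were lower and 5 higher, from Nf2 (-0.35), the upstream tumour suppressor merlin, to Amot (0.13), and none passed 2-fold. Of 14 other YAP/TAZ targets, 12 were lower in brown, with Igfbp3 (101 against 252, -1.32) past 2-fold, beside 1.83% of all genes, and Dock5 (0.84) at the other end. The 5 CCN and thrombospondin relatives at 10 CPM ran from Ccn3 (-1.06) to Ccn4 (0.04). The other targets thus had a median of -0.20 where the 8 members had 0.21.

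The same lists gave another result for wAPC 1 and bAPC 4. In wAPC 1 the 7 factor genes had a median of -0.04, from Vgll3, a TEAD cofactor, at 0.76 to Vgll4 at -0.22, with Tead1 at 0.46, Yap1 at 0.21 and Wwtr1 at -0.18. The 15 other targets had a median of 0.08, none past 2-fold, from Nuak2, a stress-fibre kinase gene, at 0.94 to Igfbp3 at -0.53. In bAPC 4, Vgll3 stood at 158 against 76.5 CPM (1.05), the 1 factor past 2-fold, and Tead1 at 0.83, Yap1 at 0.39 and Wwtr1 at 0.17. There, 12 of 15 other targets were higher, with Crim1 (1.49) and Nuak2 (1.17) past 2-fold and a median of 0.38, and 13 of 17 Hippo genes were higher, led by Frmd6 (0.72). Background shares past 2-fold upward were 0.343% and 1.00%, as above, and 42.1% and 47.1% of all genes were higher by any amount.

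Genes of the actin cytoskeleton, which respond to serum response factor and its MRTF cofactors, ran higher in most of these contrasts. In wAPC 1, 13 of 14 were higher, as were 42.1% of all genes, with a median of 0.60 beside -0.04 over all genes. Cnn1, the calponin of contractile cells, was past 2-fold at 131 against 61.6 CPM (1.09), where 0.343% of genes were. In bAPC 4, 14 of 14 were higher, as were 47.1% of all genes, with a median of 0.47 beside -0.02, and Vcl (1.05) and Cnn1 (1.02) passed 2-fold, where 1.00% of genes did. In wFAPLs over wCAPs, 13 of 14 were higher, as were 48.3% of all genes, with a median of 0.66, and Cnn1 (1.52), Myl9 (1.20) and Tpm2 (1.02) passed, where 2.25% of genes did. In bFAPLs over bCAPs the median was 0.14 and none passed, from Tpm2 (0.58) to Mrtfb (-0.27), beside 3.85% of genes in either direction. In bCAPs over wCAPs the median was 0.59, with Cnn1 (1.25) and Myl9 (1.23) past 2-fold, beside 4.30% of genes in either direction. Immediate early genes, which respond to handling, had medians of -0.19 in wAPC 1 and 0.12 in bAPC 4, with none past 2-fold in either.

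Ligands and receptors of the members showed no such pattern. In bAPC 4, 4 of 9 at 10 CPM were higher and 5 lower, beside 47.1% of all genes higher. They ran from the integrin gene Itgb3 (0.45) to Gas6 (-0.39), the ligand of Axl. In wAPC 1, 2 of 8 were higher and 6 lower, from Itgav (0.31) to Gas6 (-0.69), beside 42.1% of all genes higher. Gas6 stood at 116 CPM in wAPC 1 and 187 in the other white precursors. Adipogenic genes had medians of -0.53 in wAPC 1 and -0.34 in bAPC 4, from Fabp4, a fatty acid carrier of fat cells, at 0.14 and 0.31 down to Cebpa at -0.55 and -0.78.

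Other YAP/TAZ targets split between the CAP and FAPL contrasts. In wFAPLs over wCAPs, Crim1 (162 against 52.7 CPM, 1.62) and Nuak2 (1.47) passed 2-fold upward among 14, where 2.25% of all genes did (3.84% in either direction). The median of the 14 was -0.01, with Tgfb2 (-0.83) lowest. Amot, which encodes an angiomotin that binds YAP, passed downward (-1.10). In bFAPLs over bCAPs, Gadd45a (1.64) passed upward and Dock5 (-1.07) downward, with a median of 0.28. There, 1.86% of all genes passed upward and 3.85% in either direction. Ccn5, a CCN relative, stood at 216 against 71.1 in wFAPLs and wCAPs (1.60) and at 274 against 64.2 in bFAPLs and bCAPs (2.09). In bCAPs over wCAPs, Dock5 (1.02) was past 2-fold upward, and Igfbp3 (-1.21), Gadd45a (-2.25) and Tgfb2 (-1.13) downward, beside 4.30% of genes in either direction.

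Mural markers moved with the FAPL contrast. The summed level of Myh11, Rgs5, Abcc9, Actg2 and Notch3 was 596 CPM in wFAPLs and 84.6 in wCAPs, and 721 in bFAPLs and 187 in bCAPs, with all 5 detected in each, and Myh11 stood at 102 in wFAPLs and 6.14 in wCAPs. In wAPC 1 the sum was 188 and in bAPC 4 329.7, against 70.7 to 134 in wAPC 2, wAPC 3 and wAPC 4 and 171 to 291 in the other bAPC clusters. Most of it was Actg2, at 141 and 271. Each marker was lower in wAPC 1 than over all white precursors, as with Rgs5 (0.90 against 4.95) and Abcc9 (4.25 against 15.2). That total includes the 15 differentiating wFAPLs, which held 1203 of its 2499 Myh11 UMIs and 1655 of its 8344 Actg2 UMIs. Myh11 stood at 25.6 CPM in wAPC 1, below wFAPLs. This was above wCAPs (6.14), wAPC 2 (3.09), wAPC 3 (7.38) and wAPC 4 (2.36). In bAPC 4, Rgs5 (3.65 against 15.1) and Abcc9 (2.15 against 8.13) were below all brown precursors. There Myh11 (26.4 against 14.5) and Actg2 were above, and Notch3 was level. The part of the mural markers in the member ratios was not tested. Endothelial markers summed to at most 19.1 CPM in any cluster and glial markers to at most 31.1, beside 2401 in white glial cells.

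The 15 differentiating wFAPLs showed the highest levels of 6 members among all white clusters, with the Ajuba interval overlapping that of wAPC 4. The share of all genes that were highest in this small cluster was not counted. Thbs1 stood at 2914.5 CPM against 511 in wFAPLs (log2 2.51, 2.42 to 2.60), Ankrd1 at 107 against 20.2 (2.40), Ccn2 at 723 against 166 (2.12), Ajuba at 39.8 against 14.9 (1.42) and Amotl2 at 262 against 104 (1.33). These 5 passed 2-fold upward, where 8.47% of 9481 genes did (20.9% in either direction) and the median over all genes was -0.15. Ccn2's 345 UMIs came from 10 of the 15 cells, 132 of them from 1 cell, and it stood at 903 CPM in 12 female cells and 68.2 in 3 male cells. Ankrd1's 51 UMIs came from 9 cells. Axl was higher by less (178 against 107, 0.73), and Ccn1 (-0.07, -0.34 to 0.18) and Tnfrsf12a (0.14) were not separated. Mural markers summed to 6315 CPM in these cells and Acta2, smooth muscle actin, stood at 24519.5, and the part of these markers in the member levels was not tested.

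Levels of several members ran together over the 13 clusters of at least 50 cells. Pearson's r of log2(CPM + 1) was 0.927 for Ccn1 with Ccn2, 0.902 for Ccn2 with Thbs1, 0.889 for Ccn1 with Amotl2, 0.878 for Ccn2 with Ankrd1 and 0.821 for Tnfrsf12a with Ajuba. Axl ran apart, with r between -0.057 and 0.185 with the other 7. Clusters of one depot share a library and all were defined from these counts, so r is a description over 13 points. Yap1 itself had r between -0.197 and 0.319 with the members and Wwtr1 between -0.541 and 0.268, whereas Vgll3 reached 0.884 with Amotl2 and 0.856 with Ccn1.

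**Figure D5:**
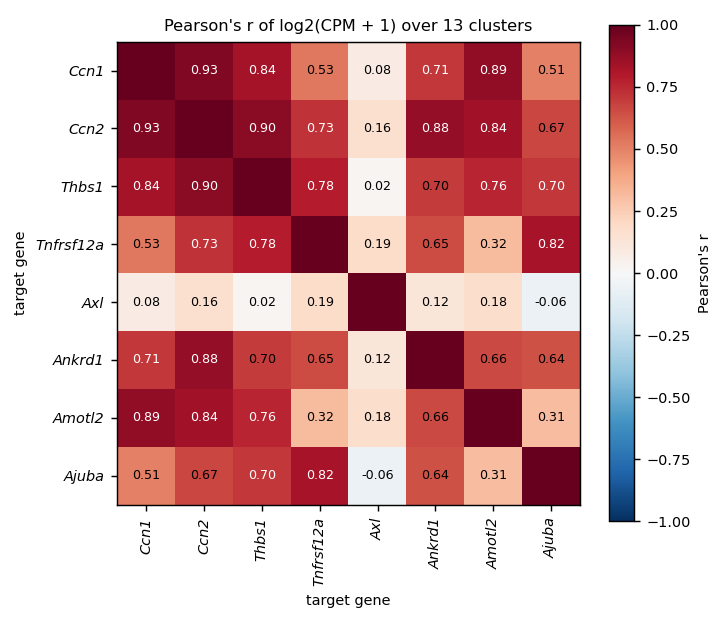
Pearson's r of log2(CPM + 1) between each pair of the 8 target genes (rows and columns) over the 13 precursor clusters of at least 50 cells, coloured from -1 (blue) to 1 (red) with the value printed. Ccn1, Ccn2, Thbs1, Ankrd1 and Amotl2 form a block of high r, and Axl stands near 0 with all others.

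Among 9910 genes with at least 10 CPM in 1 of these clusters, the profiles most like the members were named by r. Genes near Ccn2 were Ehbp1l1 (0.970) and Hspa1b (0.954), and genes near Ccn1 were Hspa1b (0.958) and Lurap1l (0.943). Thbs1 lay nearest to Ehbp1l1 (0.943), Ehd4 (0.932) and Coro1c (0.920). Ankrd1 lay nearest to Cnn1 (0.926), Tspan2 (0.925) and Nomo1 (0.892), and Amotl2 to Lats2 (0.929), a Hippo kinase, Adamts1 (0.912) and Plcxd2 (0.912). Tnfrsf12a lay nearest to Glipr2 (0.927), Arpc5 (0.907) and Pdlim7 (0.901), Ajuba to Pakap (0.921), Rasa4 (0.917) and Ppp1r18 (0.900), and Axl to Flt1 (0.870), 3300005D01Rik (0.861) and Emp2 (0.829). The best match of Axl was the loosest of the 8.

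From cell to cell the members varied unequally. In cells thinned to 10000 UMIs, the variance of UMIs per cell over their mean was 9.91 for Thbs1, 7.50 for Ccn2 and 3.93 for Ankrd1 in white precursors, and 9.58, 6.62 and 3.64 in brown. It was 1.16 and 1.15 for Axl, near the value of 1 that pure counting gives. The 10% of cells richest in Ccn2 held 68.5% of its white and 62.2% of its brown UMIs, those richest in Thbs1 40.1% and 36.6%, and those richest in Axl 33.3% and 33.2%. At this depth all Ankrd1 UMIs, 149 in white and 324 in brown, lay in under 10% of cells, while in bAPC 4 its top 10% held 73.2%. So few UMIs limit how many cells can carry the gene, and its shares before thinning, given above, were higher. Sparse genes reach high top shares in any case, as with Ajuba at 71.7% and 61.5% for a variance over mean of 1.09 and 1.05.

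Within single cells, pairs of members had low r in thinned counts. Over 28 pairs the median Pearson's r of log-normalized thinned counts was 0.0907 in 1999 white cells and 0.0910 in 1999 brown cells, and the highest was Ccn2 with Thbs1 at 0.453 and 0.414. Ccn1 with Ccn2 came next at 0.380 and 0.381. Within wCAPs this pair had r of 0.314, within wFAPLs 0.474 and within bAPC 4 0.364. Counting noise in sparse thinned counts lowers every r, so the low values, those of Axl and Ajuba pairs among them, are no finding.

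Cells with a thinned Ankrd1 UMI, 70 white and 164 brown, were compared with the rest. Ccn2 stood at 506 against 109 CPM in white (log2 2.21, 2.05 to 2.38) and 393 against 120.1 in brown (1.71, 1.58 to 1.84), and Thbs1 was higher by 1.21 and 0.76. Cnn1 was higher by 1.89 and 0.41 and Myh11 by 3.58 and 1.69, while Pparg was lower (-1.31 and -0.64). The white cells include 6 differentiating wFAPLs. Without that cluster, 64 white cells with Ankrd1 had Ccn2 at 389 against 109 CPM (1.83), Thbs1 was higher by 1.08, Cnn1 by 1.47 and Myh11 by 2.40, and Pparg was lower (-1.77). Within wAPC 1, 36 cells with Ankrd1 had Ccn2 at 597 against 268 CPM (1.15), and within bAPC 4, 36 such cells had it at 725 against 387 (0.91). In such cells of wAPC 1 and bFAPLs, Thbs1 (0.45 and 0.86), Cnn1 (0.68 and 0.97) and Myh11 (0.88 and 1.79) were higher. In bAPC 4, Thbs1 (0.03, -0.10 to 0.16), Cnn1 (-0.41) and Myh11 (-0.07) were not separated from 0. In bAPC 1 and bAPC 2, Thbs1 was higher (0.46 and 0.70), and Cnn1 was at 0.66 and -0.05. Ratios over all cells thus also carry differences between clusters. All these cells were split by a member, so these values describe which cells carry it.

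Cells outside the precursor clusters carried a different subset. Tnfrsf12a stood at 258 CPM in white glial cells (95.7% of 46 cells, 91.3% after thinning), 264 in brown glial cells (95.6% of 68, 83.8% after thinning) and 327 in 31 brown myogenic cells, above the 37.5 to 146 of precursor clusters. Axl was at 115 and 130.4 in glial cells, within or above the precursor range. Thbs1 was low there, at 11.4 and 75.5, as was Ccn2, at 3.79 and 35.1. Myogenic cells carried Ankrd1 at 380.5 CPM in 90.3% of cells (83.9% after thinning), the highest level in any population, against 0.489 in brown myeloid cells and 0 of 29 white myeloid cells, where 0 UMIs allow up to 3.55 CPM. In myeloid cells every member lay below its level in the precursors of the same depot, with Ccn1 at 27.2 and 33.7.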

How the data were processed

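Single-cell RNA-seq libraries of white and brown stromal vascular cultures were deposited by the authors as 10x Genomics gene-by-cell matrices of raw UMI counts, made with Cell Ranger 7.0.1 at default parameters and the mm10 (GRCm38) reference. Cells were filtered as the study states, keeping 3900 to 7700 genes, 1.7 to 5% mitochondrial UMIs and 6000 to 60000 UMIs, which left 4407 of 5261 white and 6137 of 7009 brown cells, the brown number differing slightly from the count that the study gives. No doublet caller was run here. The authors' cluster labels were taken for 1999 precursor cells per depot, the first of a list held here only in part. As an alternative they were carried to 4332 white and 5963 brown precursors by 15 nearest labelled neighbours over 10 components of 2000 variable genes, and a labelled cell held out regained its label in 89.6% and 84.9% of cases.

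UMIs were summed per cluster and divided by the cluster's total (CPM). Intervals are exact Poisson for CPM, Clopper-Pearson for shares of cells and conditional binomial for log2 ratios, all at 95%. PCR and capture are shared by all cells of a library, so intervals and floors (3 counts) cover counting error only. With 1 library per depot no test was made. Background shares count genes with at least 10 CPM in either sum that lay past 2-fold. Cells were called female or male from sex-linked transcripts, and phases from the Seurat cell cycle lists. Glial, myeloid and myogenic cells were taken from the authors' labels where these are held here, and otherwise from the nearest labelled neighbours. The sums and intervals were tested on simulated data.

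By rule the text names all members, the highest and lowest genes of each list and the 3 genes most like each member by r. One match of Ccn1 and Ccn2 is not reported here. Yap1, Wwtr1, Tead1, other list genes past 2-fold, and the genes set beside Ankrd1-carrying cells were named after their values were seen. The members and all lists were chosen with earlier results of these data known. Alternatives were the carried labels, G1 cells, female or male cells, thinning, TMM factors, a mean of per-cell CPM and all cells. Software was Python 3.11.15, numpy 2.4.6, scipy 1.17.1, pandas 2.3.3, scikit-learn 1.9.0, scanpy 1.11.5, matplotlib 3.10.9, R 4.3.3, Seurat 5.3.0 and edgeR 4.0.16, the last for TMM factors only.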

Additional observations from a re-analysis of the deposited data

Results flagged for a closer look

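Several member values stood out because a contrast ran one way in one setting and the other way in another, and the difference between the settings was not tested in any of them. Thbs1 was higher in wFAPLs than in wCAPs by 0.26 on the log2 scale and lower in bFAPLs than in bCAPs, at -0.066. Ccn1 was higher in bCAPs than in wCAPs, at 0.16, and lower in bFAPLs than in wFAPLs, at -0.15. Amotl2 was lower in G2/M than in G1 cells in white precursors, at -0.15, and higher in brown, at 0.15. All 6 ratios are smaller than 0.647, the 90th percentile of the absolute log2 difference between female and male cells of one cluster over all members.

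Cells outside the precursor comparisons carried 2 members at levels above those of any precursor cluster. Tnfrsf12a stood at 258 CPM in white glial cells, 264 in brown glial cells and 327 in brown myogenic cells. Ankrd1 stood at 380.5 CPM in brown myogenic cells.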

How the results depend on the processing

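Without replicate libraries no result has an error beyond counting, and no library could be left out. No paired analysis was possible because each depot is 1 library. Alternatives without the differentiating wFAPLs, and all those for wAPC 1 and bAPC 4, were chosen after seeing the data. Between depots, 0 members passed 2-fold, and 1 (Ankrd1) did with carried-over labels, G1 cells, female cells, thinning, TMM scaling, per-cell means, all filtered cells, all deposited cells and without the differentiating wFAPLs, but not in male cells. None of these left out bAPC 4, the precursor cluster in which Ankrd1 was highest in brown. The depot median of 0.21 was 0.25 with carried-over labels, in G1 cells and under TMM scaling, 0.27 with per-cell means and 0.24 without the differentiating wFAPLs. The wFAPL over wCAP median stayed between 0.25 and 0.40, with 2 members past 2-fold throughout. For bFAPLs over bCAPs the median of 0.32 was 0.44 in female and -0.32 in male cells, where 0 members passed 2-fold and Ankrd1 reversed to -0.95. In male cells 2 members passed for bCAPs over wCAPs, and for bFAPLs over wFAPLs the median was -0.11 with 1 past 2-fold, as with thinning (1). The wAPC 1 median of 0.93 was 0.78 in G1 cells and 1.00 under TMM scaling, with 4 members throughout, and the bAPC 4 median of 0.92 was 1.08 in male cells, with 3 or 4 members. TMM scaling shifted log2 ratios by at most 0.07. With a minimum of 1 CPM in place of 10 the depot background share was 3.74%, and with 50 CPM 1.34%. The cause of these moves was not tested.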

Other observations

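Cells that the filter removed were summed where they held a minimum of 1000 genes, so the poorest removed cells are left out. They carried the members at levels near those of the precursors. In 696 white cells removed, Ccn1 stood at 209 CPM, Ccn2 at 116, Thbs1 at 804 and Ankrd1 at 9.05. In 756 brown cells removed, Ccn1 stood at 224, Ccn2 at 146, Thbs1 at 868 and Ankrd1 at 23.7, with median depths of 12102 UMIs in white and 51577 in brown cells removed. Glial markers summed to 93.2 and 58.5 CPM in the removed cells, against 22.6 and 17.3 in labelled precursors. Myeloid markers summed to 87.7 and 110.1 CPM, against 9.36 and 10.2. Myogenic markers, of cells in which Ankrd1 is high, summed to 3.55 CPM in white and 153 in brown removed cells, against 3.16 and 2.51, and their part in the Ankrd1 level of the removed cells was not tested.

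Among members with at least 10 UMIs in each sex, 5 pairs of female and male values of one cluster differed past 2-fold. The log2 ratio of male over female cells was 1.10 for Ankrd1 in bAPC 1, 2.49 in bCAPs and -1.32 in bFAPLs, and for Ccn2 it was -1.52 in bAPC 3 and 1.08 in bAPC 5. All 5 lay in brown clusters, where male cells numbered 8 to 74 per cluster.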
